A study of Mus musculus with 6 samples.

Results

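The aquaporins Aqp1 to Aqp8 and Aqp11 and the vasopressin type 2 receptor Avpr2 were examined in mouse kidney RNA on 6 single-colour Agilent arrays. Probes were taken by the gene name that the scanner files give, which yielded 13 probes of 41174 and 10 genes of 27343. Aqp4 had 3 probes, Aqp7 had 2 and every other gene had 1, and each gene is described by its brightest probe. All 10 genes passed the filter of a signal well above background on at least 2 arrays, which left 19615 genes for the tests, and 9 of the 10 were well above background on all 6 arrays. Aqp5 was so on 3 arrays.

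The groups were Gpr97-deficient mice after renal ischaemia/reperfusion injury (1 array), wild-type mice after the same injury (2 arrays), Gpr97-deficient mice after sham surgery (1 array) and wild-type mice after sham surgery (2 arrays). Such surgery stops blood flow to the kidney for a time and then lets it return. Gpr97 is the older name of Adgrg3, an adhesion G protein-coupled receptor, and the sources used here give no allele, strain, age, length of ischaemia or day of sampling. The labels speak of mice and number each sample differently but do not say what the numbers mark, so a p-value here reflects the spread between these samples, part of which may be technical.

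Aquaporins are membrane channels for water, and some also pass glycerol or other small solutes. In the kidney, Aqp1 carries the bulk reabsorption of water across the proximal tubule and the thin descending limb. The collecting duct sets the final urine volume: vasopressin binds Avpr2 on principal cells, cyclic AMP rises, and Aqp2 moves to the luminal membrane and is transcribed more, while Aqp3 and Aqp4 let the water leave on the basolateral side. The members were therefore read as proximal channels (Aqp1, Aqp7, Aqp8 and Aqp11) and as the receptor and channels of the collecting duct (Avpr2, Aqp2, Aqp3, Aqp4, Aqp5 and Aqp6).

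Signals are log2 values relative to the 75th percentile of each array, so a value of one probe cannot be set against that of another. Wild-type injured array 2 and wild-type sham array 1 lay on slide 1, and the other 4 arrays lay on slide 2, which had another scan date entry and was read with another version of the extraction software. Between 63.0% and 71.1% of probes were well above background, 0 spots were saturated, and the number of arrays limits the precision. Adgrg3 stood at -5.75 on the Gpr97-deficient injured array, not well above background, and at -5.38 on the Gpr97-deficient sham array, against 0.02 to 1.18 on the 4 wild-type arrays. All samples are labelled male, but wild-type injured array 1 had Xist, a transcript of the inactive X chromosome of female cells, at 4.05, against -5.45 or lower elsewhere, and on it 4 of 4 genes of the Y chromosome gave no signal well above background. The 2 wild-type injured arrays therefore do not come from 1 animal. The injury change of each member is also given without wild-type injured array 1. Whole kidney RNA was measured, in which fewer cells of a type and less RNA per cell cannot be told apart.

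Injured and sham kidneys were compared first, 3 arrays against 3, to see how the water channels stood after ischaemia. Aqp1 and Aqp11 were lower on every injured array than on every sham array, and Aqp8 was higher on every injured array than on every sham array. Of the other 7 members, Aqp4 and Aqp7 were lower in each of 3 slide pairs (an injured with a sham array of the same slide and genotype), while Aqp2, Aqp3, Aqp5, Aqp6 and Avpr2 moved in both directions. With limma's additive model of surgery and genotype, 0 of 10 members passed an adjusted p of 0.05 (lowest 0.333), as did 0 of 19615 genes, 0% of those tested. At an unadjusted p under 0.05 there were 3 members, Aqp1, Aqp8 and Aqp11, where the share over all genes was 12.3% (2408 genes, 6.71% of all genes lower and 5.56% higher). Groups that did not overlap were seen in 13.1% of all genes with the injured arrays below and in 9.69% with the injured arrays above, beside 2 and 1 of the 10 members.

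**Figure D1:**
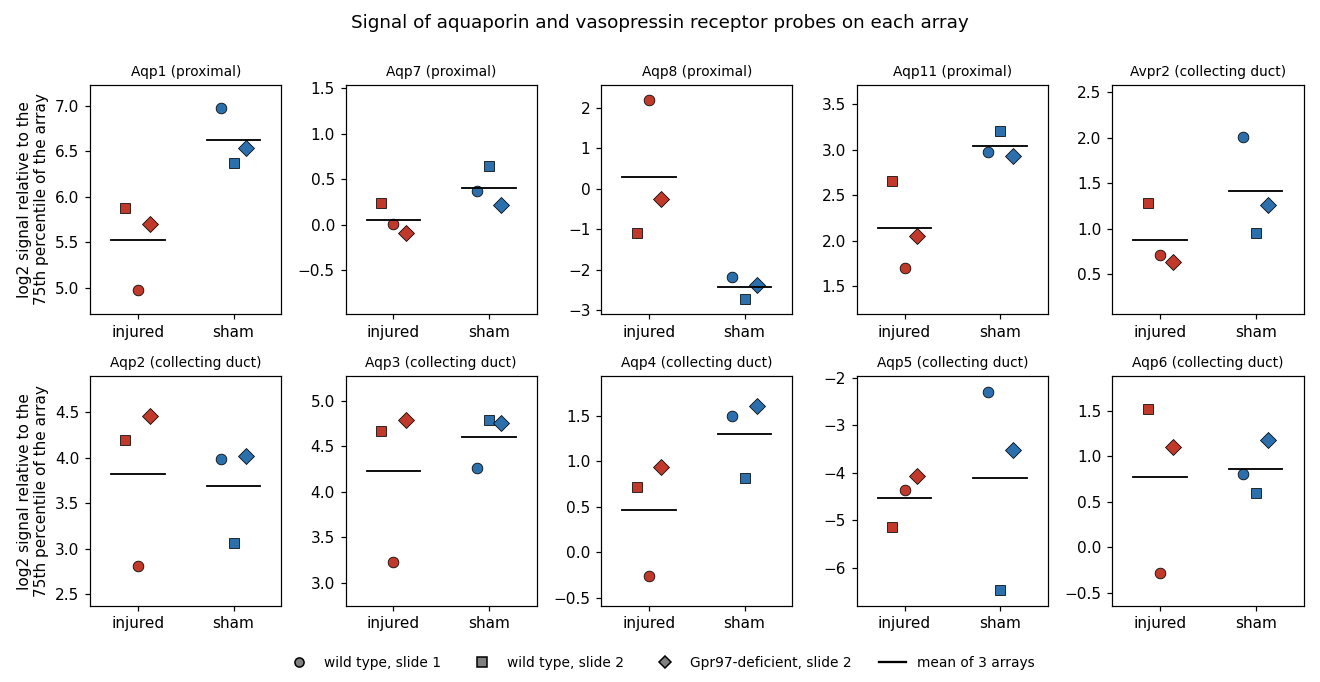
Each panel plots 1 gene on its own log2 axis, the signal over the array's 75th percentile, for 3 injured arrays (red, left) and 3 sham arrays (blue, right), with a line at the mean of 3 arrays. Symbols mark genotype and slide, and the groups are apart for Aqp1, Aqp8 and Aqp11 and overlap for the other 7 genes.

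Aqp1, the constitutive water channel of the proximal tubule and thin descending limb, lies on chromosome 6 (55336299 to 55348555 in GRCm38.p6). Its signal was 5.70 on the Gpr97-deficient injured array and 5.88 and 4.97 on the wild-type injured arrays, against 6.53 on the Gpr97-deficient sham array and 6.97 and 6.37 on the wild-type sham arrays. The highest injured value thus stayed under the lowest sham value, and wild-type injured array 2 was the lowest of all. The mean was 5.52 ± 0.48 in injured kidneys and 6.62 ± 0.31 in sham kidneys (SD, n = 3 each), a change of -1.1 (SE 0.33) or 2.15-fold lower (limma adjusted p 0.333). Leaving out wild-type injured array 1 gave -1.33, and leaving out array 2 of that group gave -0.80. In the order of group levels, wild-type injured kidneys (5.43 ± 0.65, SD, n = 2) and the Gpr97-deficient injured kidney (5.70) were neighbours that differed by less than the spread between the wild-type arrays, and so were the Gpr97-deficient sham kidney (6.53) and wild-type sham kidneys (6.67 ± 0.42, SD, n = 2).

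Aqp8, a channel that also passes ammonia and is described in intracellular membranes, went the other way. It stood at -0.24 on the Gpr97-deficient injured array and at -1.09 and 2.19 on the wild-type injured arrays, against -2.38 on the Gpr97-deficient sham array and -2.18 and -2.71 on the wild-type sham arrays. All 3 injured arrays were above the sham range, but they spread widely, with an SD of 1.71 against 0.26 on the sham arrays. The means were 0.29 in injured and -2.42 in sham kidneys (n = 3 each), a change of 2.71 (SE 0.89) or 6.53-fold higher (limma adjusted p 0.362). Wild-type injured array 2 carried much of it: the change was 1.69 without it, against 3.56 without array 1 of that group, and normexp background correction gave 1.96. Within slides it was 2.13 in the Gpr97-deficient pair and 4.38 and 1.61 in the wild-type pairs of slides 1 and 2. Aqp8 has 1 probe here, at 130611436 to 130611495 of chromosome 7 in mm9, so no other probe checks this change.

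Aqp11, a channel of the endoplasmic reticulum in proximal tubule cells whose loss causes cystic kidneys in mice, was at 2.05 on the Gpr97-deficient injured array and at 2.66 and 1.70 on the wild-type injured arrays. After sham surgery it was at 2.93 in the Gpr97-deficient kidney and at 2.98 and 3.21 on the wild-type sham arrays. The sham arrays lay close together (SD 0.15), above all injured arrays (SD 0.49). The change was -0.9 (SE 0.29), 1.87-fold lower (limma adjusted p 0.356). Leaving out wild-type injured array 2 gave -0.63, and array 1 of that group -1.17.

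Aqp7, a channel for water and glycerol of the straight proximal tubule, was at -0.09 on the Gpr97-deficient injured array and 0.24 and 0.01 on the wild-type injured arrays, against 0.22 on the Gpr97-deficient sham array and 0.37 and 0.65 on the wild-type sham arrays. These groups overlapped slightly. The change of -0.36 (SE 0.17, limma adjusted p 0.467) lay close together in the 3 slide pairs, at -0.31 in the Gpr97-deficient pair and -0.36 and -0.42 in the wild-type pairs, and it was -0.42 without wild-type injured array 1. Its second probe gave -0.40 in the Gpr97-deficient pair and -0.46 in wild type, beside -0.31 and -0.39 by the brighter probe. Aqp7 and Aqp3 are neighbouring genes on chromosome 4, and Aqp3 of the collecting duct had no such common direction.

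Among the collecting duct members, Aqp2, the channel under the control of vasopressin, showed no common direction after injury. Its signal was 4.46 on the Gpr97-deficient injured array and 4.2 and 2.81 on the wild-type injured arrays, against 4.02 on the Gpr97-deficient sham array and 3.99 and 3.06 on the wild-type sham arrays. Low values were seen on 1 injured array (wild-type injured array 2) and on 1 sham array (wild-type sham array 2), and the groups overlapped over most of their range. The change was 0.14 (SE 0.46, limma adjusted p 0.941), with an injured mean of 3.82 ± 0.89 and a sham mean of 3.69 ± 0.55 (SD, n = 3 each). Within slides it was 0.44 in the Gpr97-deficient pair, -1.17 in the wild-type pair of slide 1 and 1.15 in that of slide 2, so the wild-type pairs were opposed. Without wild-type injured array 1 it was -0.22 and without wild-type sham array 2 -0.09.

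The Aqp2 signal comes from 1 probe of 60 bases. The scanner files place it over 977 bases of chr15:99412578-99413554 in mm9, so 917 bases between its ends are not in the probe and it lies across an exon junction of the spliced RNA. It is shown because the whole account of Aqp2 rests on it.
Aqp2 probe: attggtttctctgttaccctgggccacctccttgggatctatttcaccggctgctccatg

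Avpr2, the receptor that couples vasopressin to cyclic AMP, is on chromosome X. It stood at 0.63 on the Gpr97-deficient injured array and at 1.28 and 0.71 on the wild-type injured arrays, against 1.26 on the Gpr97-deficient sham array and 2.01 and 0.95 on the wild-type sham arrays. Wild-type injured array 1, with the Xist signal, was above 2 of the 3 sham arrays. The change was -0.53 (SE 0.34, limma adjusted p 0.575), -0.71 without wild-type injured array 1, -0.85 without wild-type sham array 2 and -0.24 without wild-type sham array 1. The wild-type pair of slide 2 gave 0.33 and that of slide 1 gave -1.3.

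Aqp3 and Aqp4, the basolateral channels of principal cells, differed from each other. Aqp3 was at 4.79 on the Gpr97-deficient injured array and 4.67 and 3.22 on the wild-type injured arrays, against 4.75 on the Gpr97-deficient sham array and 4.26 and 4.79 on the wild-type sham arrays. Only wild-type injured array 2 was below the sham range, and the change of -0.37 (SE 0.44, limma adjusted p 0.779) became 0.10 without it and -0.73 without wild-type injured array 1. Aqp4 was at 0.93 on the Gpr97-deficient injured array and at 0.71 and -0.26 on the wild-type injured arrays, against 1.6 on the Gpr97-deficient sham array and 1.49 and 0.81 on the wild-type sham arrays. The groups overlapped by the Gpr97-deficient injured array alone, which lay above wild-type sham array 2. The change of Aqp4 was -0.84 (SE 0.34), 1.79-fold lower (limma adjusted p 0.42), -0.54 without wild-type injured array 2 and -1.09 without array 1 of that group. The other 2 Aqp4 probes gave -0.62 and -0.58 in the Gpr97-deficient pair and -0.99 and -0.84 in wild type, beside -0.66 and -0.92 by the brightest.

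Aqp5 and Aqp6 are the intercalated cell channels of the group: Aqp6 lies in intracellular vesicles and Aqp5, a channel of salivary and lung epithelium, is described in type B intercalated cells. They lie beside Aqp2 on chromosome 15, Aqp2 from 99579056 to 99584545, Aqp5 from 99591028 to 99594829 and Aqp6 from 99598468 to 99605478 (GRCm38.p6), with no other protein-coding gene between them in the RefSeq table. Aqp6 was at 1.1 on the Gpr97-deficient injured array and at 1.52 and -0.28 on the wild-type injured arrays, against 1.18 on the Gpr97-deficient sham array and 0.81 and 0.60 on the wild-type sham arrays. The 2 wild-type injured arrays enclosed all sham values, and the change of -0.09 (SE 0.49, limma adjusted p 0.97) became -0.60 when wild-type injured array 1 was left out and 0.43 when array 2 of that group was. Aqp5 was well above background on the Gpr97-deficient injured array (-4.07), the Gpr97-deficient sham array (-3.52) and wild-type sham array 1 (-2.30) and not on the other 3 arrays. In wild-type kidneys it was measured at -4.76 after injury, where 0 of 2 arrays were well above background, and at -4.38 after sham surgery, where 1 of 2 was. The sham arrays lay on both sides of the injured arrays, and no fold is given for these signals near background. Over both genotypes the fitted change was -0.43 (SE 1.1, limma adjusted p 0.917), -0.23 with wild-type injured array 1 left out and 0.74 with wild-type sham array 1 left out.

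**Figure D2:**
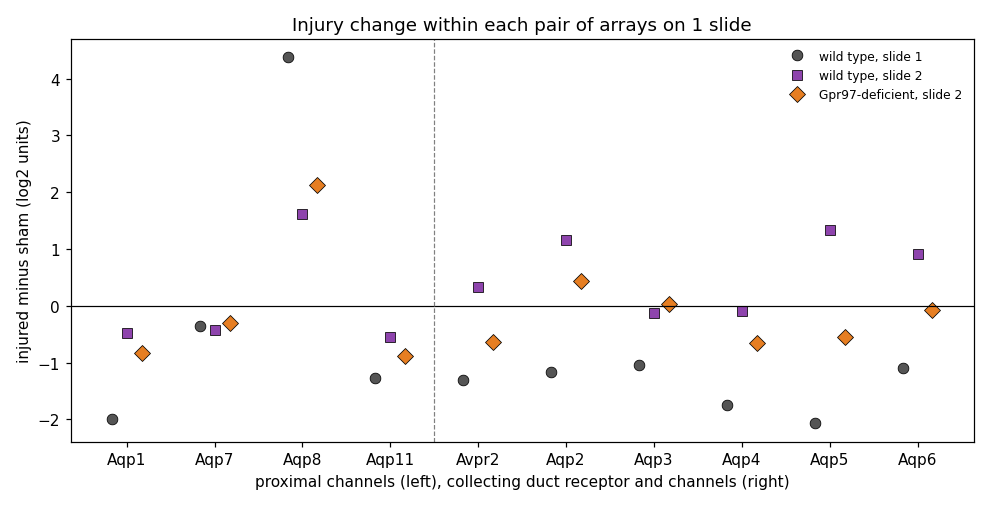
The vertical axis is the injured minus the sham signal in log2 units within each pair of arrays on 1 slide (circles wild type on slide 1, squares wild type on slide 2, diamonds Gpr97-deficient on slide 2), for the proximal channels left of the dashed line and the collecting duct receptor and channels right of it. Aqp1, Aqp7 and Aqp11 lie below 0 in 3 of 3 pairs and Aqp8 above 0 in 3 of 3, while of the 6 genes to the right Aqp4 alone keeps 1 side. The squares use wild-type injured array 1, which had the Xist signal.

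Set side by side, the proximal channels kept their direction across the 3 slide pairs more often than the collecting duct members: 4 of 4 proximal genes did so (3 lower, 1 higher), against 1 of 6 collecting duct genes. Over all genes, 26.4% were lower and 18.7% higher in all 3 pairs. The counts of members accept either direction, so the share of all genes to set beside them is the sum of these shares. The wild-type pair of slide 2 holds wild-type injured array 1, which had the Xist signal. Aqp5 (1.33), Aqp6 (0.92) and Avpr2 (0.33) were above 0 in that pair alone and below 0 in the other pairs. Aqp2 and Aqp3 differed in sign between the other pairs as well. The difference between the sites was not tested, since the genes were chosen and are few. The median change over both genotypes was -0.63 for the proximal channels and -0.40 for the collecting duct members, beside -0.06 over all genes. The median of the collecting duct members became -0.65 when wild-type injured array 1 was left out, -0.14 when array 2 of that group was, and also -0.14 without wild-type sham array 1. The proximal median stayed between -0.8 and -0.46 when 1 wild-type array was left out. Within the slide pairs the proximal median was -0.57 in the Gpr97-deficient pair and -0.82 and -0.45 in the wild-type pairs of slides 1 and 2, and the collecting duct median was -0.32, -1.24 and 0.62 in the same pairs. The proximal median hides Aqp8, which was higher where the other 3 were lower.

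Genes of the same nephron segments were set beside the channels. Of 24 proximal tubule genes tested, 22 were lower after injury with a median of -0.95, 16 of them at an unadjusted p under 0.05, where 56.7% of all genes were lower and 6.71% were lower at that level; 0 passed after adjustment. Slc7a13, an amino acid transporter, had a change of -4.12 (SE 1.51) and Slc34a3, a phosphate transporter, of -2.58 (SE 0.76). Both changes include wild-type injured array 1, which had the Xist signal, and the part of sex in them was not tested. Against the mean of the sham arrays, the median of this list was -1.09 on the Gpr97-deficient injured array and -0.50 and -1.27 on the wild-type injured arrays, the same order of arrays as for the median of the proximal channels (-0.71, -0.28 and -0.87). The summed level of the list, in multiples of the 75th percentile, was 913 to 1730 on the injured arrays and 1920 to 2580 on the sham arrays. Bright probes weigh most in such a sum, here and for the lists below, so it is set between arrays only and is not an amount of cells.

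Principal cell genes stood close to the sham level. Of 15 tested, 10 were lower, with a median of -0.08 and 1 at an unadjusted p under 0.05, Calb1, a calcium-binding protein of the distal nephron (-1.16, SE 0.34). Elf5, a transcription factor of principal cells, was at 0.37 (SE 0.57). The median of this list by array lay between -0.17 and 0.05 on the injured arrays and between -0.07 and 0.09 on the sham arrays, and its summed level was 128 to 180 and 153 to 223. Of 15 intercalated cell genes 13 were lower, with a median of -0.54 and 0 at an unadjusted p under 0.05, Slc4a1, the chloride/bicarbonate exchanger, at -1.19 (SE 0.83) and Slc26a4, pendrin, at -0.96 (SE 0.44). Their median was -0.29 on the Gpr97-deficient injured array, 0.28 on wild-type injured array 1 and -1.3 on wild-type injured array 2, and Aqp6 was lowest on that last array too. Thick limb and distal genes were lower in 13 of 14, with a median of -0.67, Pvalb at -2.96 (SE 1.58) and Egf, the epidermal growth factor precursor, at -2.73 (SE 0.89), and they too were lowest on wild-type injured array 2 (-1.41). Their part in the channels' values was not tested.

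**Figure D3:**
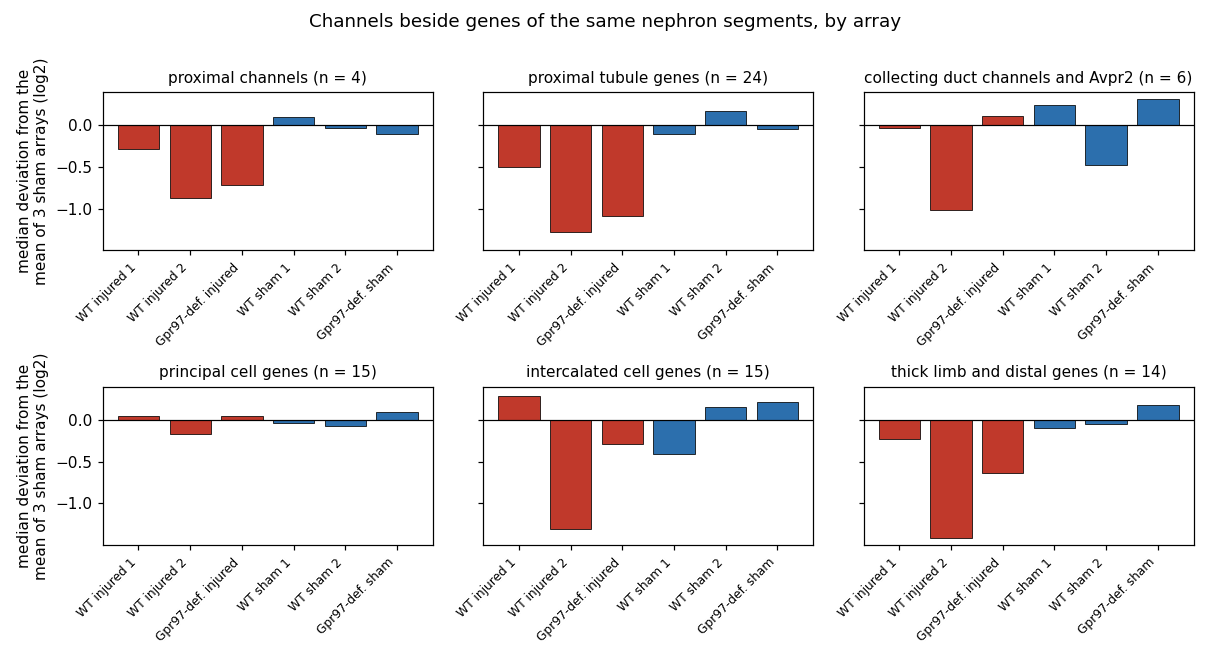
Bars give, for each array, the median over the genes of a list of the log2 deviation from the mean of the 3 sham arrays, injured arrays in red on the left and sham arrays in blue on the right. Proximal channels (-0.87), proximal tubule genes (-1.27) and the collecting duct members (-1.01) are lowest on wild-type injured array 2. So are intercalated cell genes (-1.3) and thick limb and distal genes (-1.41). Principal cell genes are lowest there too, but stay between -0.17 and 0.09 on all arrays.

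The pathway from vasopressin to Aqp2 was read from 2 lists. Of 30 genes of vasopressin and cyclic AMP signalling, 12 were higher and 18 lower, with a median of -0.08, and 0 passed after adjustment. Oxtr, the oxytocin receptor, had a change of 3.06 (SE 1.48) with a signal well above background on 2 of 6 arrays, and Avpr1b, another vasopressin receptor, of -1.35 (SE 0.81) with 3 of 6. Avp, the hormone gene itself, was well above background on 0 arrays. Of 27 genes of Aqp2 trafficking, 16 were higher and 11 lower, with a median of 0.05 and 0 past adjustment. Anxa2, an annexin of membrane fusion, had a signal of 2.46 on the Gpr97-deficient injured array and 2.16 and 3.53 on the wild-type injured arrays, against 1.25 on the Gpr97-deficient sham array and 1.06 and 0.43 on the wild-type sham arrays, a change of 1.80 (SE 0.45, limma adjusted p 0.304). Moesin (Msn), a linker of membrane and actin, was at 0.65 (SE 0.39).

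Lists of other cells and of the medulla were also measured. The 9 genes of the osmotic response, which follow the salt and urea gradient of the medulla, had a median of -0.01, with 5 lower, Akr1b3, the aldose reductase that makes sorbitol, at -0.82 (SE 0.34) and Slc6a12, the betaine transporter, at -0.76 (SE 1.0). That median joins -0.22 in wild type, with 6 of 9 lower, and 0.33 in the Gpr97-deficient pair, 1 array against 1, with 6 of 9 higher. The median of all genes was -0.05 in each genotype. The 7 genes of the thin limb and vasa recta had a median of 0.77, with 4 higher, Sptssb at -2.43 (SE 1.76), well above background on 2 of 6 arrays, and Cldn4, a claudin, at 1.47 (SE 0.31). On wild-type sham array 2, one of the 2 arrays with low Aqp2, that list had its lowest median (-0.84) and a summed level of 4.78, against 17 to 27 on the injured arrays and 18.3 and 14.1 on the other sham arrays, and the urothelial list its lowest median too (-1.65). The urothelial list had a median change of 0.17, 3 of 6 higher, Krt20 at 8.31 (SE 0.76) and Krt5 at 1.69 (SE 0.77). The median of that list was 1.12 in wild type, with 4 of 6 higher, and -0.95 in the Gpr97-deficient pair, with 4 of 6 lower. The thin limb median was 0.58 on the other array with low Aqp2, wild-type injured array 2. The part of the tissue sampled in the Aqp2 values was not tested.

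Cells outside the tubule that carry aquaporins were checked in the same way. Endothelial cells, which carry Aqp1 in the vasa recta, had a median of 0.13 over 10 genes, 7 higher, with Nos3, the endothelial nitric oxide synthase, at 0.76 (SE 0.21) and Kdr, a VEGF receptor, at -0.66 (SE 0.19). Against the mean of the sham arrays, their median was 0.49 on the Gpr97-deficient injured array and -0.18 and -0.06 on the wild-type injured arrays. Red cells also carry Aqp1: 4 of their genes were tested, 3 higher, with a median of 0.13, and their summed level was 25.3 on the Gpr97-deficient injured array and 41.8 and 8.45 on the wild-type injured arrays, against 81.4 on the Gpr97-deficient sham array and 6.18 and 8.72 on the wild-type sham arrays. Hba-a1, alpha globin, had a change of 0.40 (SE 1.31) and Alas2, the haem enzyme of red cells, of -0.21 (SE 1.71), and Ahsp, a chaperone of alpha globin, was well above background on 0 arrays. Among injured arrays Aqp1 was highest where the red cell level was (5.88 on wild-type injured array 1), and among sham arrays it was highest where the red cell level was lowest (6.97 on wild-type sham array 1). Fat cells carry Aqp7: of 5 adipocyte genes tested 4 were higher, with a median of 0.28, Cidec, a lipid droplet protein, at 3.44 (SE 0.56) and Retn, resistin, at -1.25 (SE 0.90), and Adipoq and Plin1, genes of fat cells, were each well above background on 1 of 6 arrays. The median of the adipocyte list was 0.94 on the Gpr97-deficient injured array and 0.02 and -0.07 on the wild-type injured arrays. In wild type 4 of the 5 genes were lower, with a median of -0.12. The part of endothelial, red and fat cells in the Aqp1 and Aqp7 values was not tested. The other aquaporins on the array, Aqp9 and Aqp12, were well above background on 0 arrays by any probe, and Mip on 2 (change -0.40, SE 0.68).

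By genotype, the injury change was read in each and the difference tested. In wild-type kidneys (2 arrays against 2), Aqp1 had a change of -1.24 (SE 0.44, limma adjusted p 0.774), Aqp8 of 2.99 (SE 1.18, adjusted p 0.792), Aqp11 of -0.91 (SE 0.41, adjusted p 0.799) and Aqp4 of -0.92 (SE 0.47, adjusted p 0.806); 0 members and 0 genes passed (0%), and 1254 genes, 6.39%, had an unadjusted p under 0.05, among them Aqp1. In the Gpr97-deficient pair, 1 array against 1 with no replicate check, the differences were -0.83 for Aqp1, 2.13 for Aqp8, -0.88 for Aqp11 and -0.66 for Aqp4. These 4 genes had the same sign in both genotypes. The difference of the injury change, Gpr97-deficient minus wild type, ranged over the 10 members from -0.86 for Aqp8 (SE 2.05) to 0.61 for Aqp3 (SE 1.01), with adjusted p 1 for each by limma and 0 genes past the threshold (0%). Unadjusted, 1.49% of all genes and 0 members had a p under 0.05.

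Gpr97-deficient kidneys were then compared with wild-type kidneys over both surgeries, 2 arrays against 4. The 5 collecting duct channels had fitted differences above 0 and Avpr2 one below 0, none past the threshold: Aqp2 by 0.73 (SE 0.49), Aqp4 by 0.58 (SE 0.36), Aqp3 by 0.54 (SE 0.47), Aqp6 by 0.47 (SE 0.52) and Avpr2 by -0.29 (SE 0.36). Aqp5, near the detection limit, was at 0.77 (SE 1.17). The proximal channels were at 0.07 (Aqp1, SE 0.35), -0.15 (Aqp11, SE 0.31), -0.26 (Aqp7, SE 0.18) and -0.36 (Aqp8, SE 0.94). The adjusted p of all 10 lay between 0.993 and 0.995 by limma, 0 members had an unadjusted p under 0.05, where 3.26% of genes did, and for each member the Gpr97-deficient range overlapped the wild-type range, where 6.52% of genes lay wholly below and 4.33% wholly above. Both Gpr97-deficient arrays were on slide 2, and with slide as a block the values were 0.61 for Aqp2, 0.51 for Aqp4, 0.04 for Aqp3, 0.07 for Aqp6, 0.59 for Aqp8, -0.44 for Aqp11 and 2.0 for Aqp5. Without wild-type injured array 1 the fitted differences were 0.99 for Aqp2, 0.77 for Aqp4, 0.81 for Aqp3, 0.86 for Aqp6, 0.62 for Aqp5 and -0.16 for Avpr2. That array, with the Xist signal, is the wild-type injured array of slide 2, so genotype and sex cannot be told apart there after injury. On slide 2 alone, 1 Gpr97-deficient array minus 1 wild-type array, 4 members turned their sign between surgeries: Aqp6 was at -0.42 after injury and 0.57 after sham surgery, Avpr2 at -0.65 and 0.31, Aqp3 at 0.12 and -0.03 and Aqp1 at -0.19 and 0.17. The other 6 kept 1 sign there, above 0 for Aqp2 (0.26 after injury and 0.96 after sham surgery), Aqp4 (0.23 and 0.79), Aqp5 (1.06 and 2.94) and Aqp8 (0.85 and 0.33) and below 0 for Aqp7 (-0.33 and -0.44) and Aqp11 (-0.61 and -0.28). Several lists of other cells stood above 0 in the same comparison over both surgeries, where 51.6% of all genes were below 0: 14 of 15 intercalated cell genes (median 0.29), 13 of 14 thick limb and distal genes (0.28), 10 of 10 endothelial genes (0.34), 6 of 7 thin limb and vasa recta genes (0.30) and 12 of 15 principal cell genes (0.10), with 0 past the threshold. So did 20 of 30 vasopressin pathway genes (0.09) and 7 of 9 osmotic response genes (0.10). Closer to an even split were 13 of 27 Aqp2 trafficking genes (-0.01), 3 of 6 urothelial (0.02), 3 of 5 adipocyte (0.22) and 2 of 4 red cell genes (1.46). Of the proximal tubule genes 9 of 24 were above 0 (median -0.16). Their part in the channels' values was not tested. Within 1 surgery the members differed between genotypes by -0.79 to 0.95 after injury and by -0.30 to 0.86 after sham surgery, 1 array against 2, with adjusted p 1 for each by limma and 0 genes past the threshold (0%).

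The genes with patterns most like Aqp1 and Aqp2 over the 6 arrays were taken by Pearson's r from 2429 genes well above background on all arrays with an SD of at least 0.5. All points share their arrays, so r is a description. Closest to Aqp1 were Dlec1 (r = 0.991), Tfdp2 (0.989), Ranbp3l (0.987), Dhrs3 (0.986) and Dzank1 (0.983). Ranbp3l ran from 0.11 to 2.07 on the injured arrays and from 2.58 to 3.67 on the sham arrays. Closest to Aqp2 were Cfap52 (0.979), Agt, angiotensinogen (0.968), Arl4d (0.959), Ifitm1 (0.955) and Cbr2 (0.953). Cfap52 was at -0.56 on the Gpr97-deficient injured array and -1.12 and -3.59 on the wild-type injured arrays, against -0.82 on the Gpr97-deficient sham array and -1.22 and -3.50 on the wild-type sham arrays, so it was low on the same 2 arrays as Aqp2.

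The sequence just before the start of 3 genes is shown, because Aqp1 and Aqp8 stood apart in opposite directions after injury and Aqp2 is the gene with known control by cyclic AMP. RefSeq promoter sequences (GRCm38.p6) were matched for 9 of the 10 members, and the 250 bases before the start are given 5′ to 3′ on the strand of the gene, the plus strand for all 3, at chr6:55336049-55336298, chr7:123462044-123462293 and chr15:99578806-99579055. Capitals mark matches to any motif searched.
Aqp1: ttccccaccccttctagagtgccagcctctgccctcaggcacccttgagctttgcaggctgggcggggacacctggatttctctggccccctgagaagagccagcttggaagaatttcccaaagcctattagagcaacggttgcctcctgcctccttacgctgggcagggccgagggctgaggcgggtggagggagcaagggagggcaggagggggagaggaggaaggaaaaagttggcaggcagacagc
Aqp8: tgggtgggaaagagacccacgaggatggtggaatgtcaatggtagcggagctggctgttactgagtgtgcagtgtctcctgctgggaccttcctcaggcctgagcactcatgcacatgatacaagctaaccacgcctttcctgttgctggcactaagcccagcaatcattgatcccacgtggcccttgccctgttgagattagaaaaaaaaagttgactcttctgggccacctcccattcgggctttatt
Aqp2: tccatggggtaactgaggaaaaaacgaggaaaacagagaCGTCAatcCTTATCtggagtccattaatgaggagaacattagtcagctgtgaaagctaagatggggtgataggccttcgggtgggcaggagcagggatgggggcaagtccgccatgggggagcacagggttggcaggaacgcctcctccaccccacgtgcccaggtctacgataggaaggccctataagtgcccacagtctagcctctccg
The motifs searched on both strands were the cyclic AMP response element TGACGTCA (in 1.55% of 32851 promoter windows of this length) and its core TGACG (17.8%, which also counts the full element), the GATA motif GATAAG (6.55%), the HNF1 motif (0.0335%), the HNF4 motif CAAAGTCCA (0.384%), the AP-1 motif TGANTCA (6.75%) and the TATA box TATAAA (12.4%). Aqp2 held TGACG on the minus strand at bases -211 to -207 from the start and GATAAG on the minus strand at -203 to -198, and Aqp1 and Aqp8 held no match in these windows. These are matches of letters and not shown to be sites, and the lack of a match says only that these letters are not in the window.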

How the data were processed

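Agilent one-colour arrays labelled with Cy3 were read for 6 kidney samples. Per the file headers, intensity values come from Feature Extraction 10.7.1.1 (slide 1) and 10.7.3.1 (slide 2), with probe positions in mm9. The deposited background and outlier flags are other columns of the same files. The authors' deposited log2 values had medians of 6.07 to 6.09 and followed the scanner signals of each array (Spearman's rho 1.00 after rounding), which settles scale and direction. Their normalization is unknown, and limma is named, with no version, in the submitters' processing notes.

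The processed signals were put on a log2 scale and the 75th percentile of their array was subtracted. Control spots (43379 of 45018 spots kept) and outlier spots were left out and spots of a probe averaged. Of 41174 probes, 27668 were named by accession, 6060 by symbol or synonym from RefSeq and 7446 kept the file's name. Each gene was represented by the probe of highest mean. The 19615 genes with a signal well above background on 2 or more arrays entered the tests, 9 of them with a missing value.

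limma 3.58.1 (R 4.3.3; figures with Python 3.11.15, matplotlib 3.10.9) fitted surgery and genotype additively (3 residual degrees of freedom) or the 4 group means (2 degrees), where groups of 1 array borrow the spread of wild type. Tests are two-sided, with p-values adjusted over all genes by Benjamini-Hochberg and a threshold of 0.05. They were also run on simulated data, whose outcome is not given here. No arrays were identical (0 of 15 pairs). Slide, scan date entry and software version go together and were used as a block in an alternative.

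The members, gene lists and rules were chosen with earlier results of these data known. Genes named were all 10 members, Adgrg3, the members of each list past the threshold or else the 2 with the largest change over both genotypes, and the 5 genes most like Aqp1 and most like Aqp2; Xist, Y-linked genes and genes below background were named as checks after their values were seen. Alternatives were quantile normalization, normexp (offset 50), the deposited values, slide as a block, a variance trend with robust prior, other filters, the mean of the probes and leaving out each wild-type array. No promoter of Aqp4 was used here.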

Additional observations from a re-analysis of the deposited data

Results flagged for a closer look

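Aqp3 was flagged because its injury change was below 0 in wild type and close to 0 in the Gpr97-deficient pair, 1 array against 1. Its injury change was 0.03 in the Gpr97-deficient pair of arrays, against -0.58 in wild-type kidneys, where both slide pairs were below 0 (-1.04 on slide 1 and -0.12 on slide 2). The difference of 0.61 (SE 1.01) had an adjusted p of 1 with limma, and it was -0.12 without wild-type injured array 2 and 1.34 at most when another wild-type array was left out.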

How the results depend on the processing

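No member passed an adjusted p of 0.05 in any comparison under any of the alternatives run. Over both genotypes the injury change of Aqp1 stayed between -1.33 and -0.80, of Aqp11 between -1.17 and -0.63, of Aqp8 between 1.69 and 3.56, of Aqp7 between -0.44 and -0.27, of Aqp4 between -1.09 and -0.54 and of Avpr2 between -0.85 and -0.24. The count of genes called for injury over both genotypes, 0 in the main processing, was 1 with quantile normalization, with normexp, with the deposited values and with slide as a block, and 3 when limma's prior was robust and followed a trend. With that prior it was also 1 (Adgrg3) for Gpr97 deficiency over both surgeries and 1 (Adgrg3) in the injured kidney, 0 in the main processing. Leaving out 1 wild-type array turned the sign of some small changes. Over both genotypes these were Aqp2 (-0.22 to 0.58), Aqp3 (-0.73 to 0.10), Aqp5 (-1.64 to 0.74) and Aqp6 (-0.60 to 0.43). In wild type they were Aqp2 (-0.71 to 0.68), Aqp3 (-1.30 to 0.15), Aqp5 (-2.45 to 1.71), Aqp6 (-0.99 to 0.81) and Avpr2 (-1.01 to 0.05). For Gpr97 deficiency they were Aqp1 (-0.16 to 0.24), Aqp8 (-1.0 to 0.40), Aqp11 (-0.35 to 0.06) and Aqp5 (-0.13 to 1.65), and for the difference between genotypes Aqp3 (-0.12 to 1.34) and Aqp8 (-2.51 to 0.78). Aqp2 in wild type (-0.01) was 0.05 with quantile normalization, 0.06 with normexp and 0.05 with the deposited values. For Gpr97 deficiency Aqp1 (0.07) was -0.03 with quantile normalization, -0.02 with normexp, -0.04 with the deposited values and -0.01 with slide as a block, and Aqp8 (-0.36) was 0.59 with slide as a block. The cause was not tested. With no filter on dim probes the median of all genes for Gpr97 deficiency was -0.11, against -0.01 in the main processing. No paired analysis was possible because the labels give no replicate numbers shared between groups. Arrays could be matched by slide alone, and with slide as a block the injury change over both genotypes had a limma adjusted p of 0.174 for Aqp11, 0.18 for Aqp8 and 0.241 for Aqp1. Arrays of 1 per Gpr97-deficient group and signals near background (Aqp5) limit what can be seen.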
